A study of Arabidopsis thaliana with 12 samples.

Results

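Receptor genes of 10 loci that act in meristem size, vascular growth and organ shape in Arabidopsis thaliana are described here by the ribosome footprints on their open reading frames (ORFs). They were chosen by locus name as CLV1, CLV2, CRN, BAM1, BAM2, BAM3, ACR4, PXY, ERECTA and ERL1, and every ORF listed under those 10 loci was taken. All 10 were among the 18273 genes with a translated ORF listed in root or shoot. The material was wild-type Col seedlings, 4 days old, grown in liquid medium with sucrose, and roots and shoots were harvested 3 hours after lights on. Of 12 libraries, 3 per tissue were ribosome profiling, which sequences the RNA fragments that ribosomes protect, and 3 per tissue were RNA-seq. The tables used here hold 1 list of translated ORFs and 1 whole-number count per ORF for each tissue. The RNA-seq libraries were not used here, and a difference in count can lie in the transcript or in its translation. With 1 value per tissue there is no replicate check and no test. All intervals are 95% intervals for counting error only, and footprints without molecular identifiers are not independent molecules.

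Receptor kinases of this kind carry an extracellular domain that binds a secreted peptide, a span through the plasma membrane and a kinase domain inside the cell. In the shoot meristem, the peptide CLV3 signals through CLV1, through the pair CLV2 and CRN, and through BAM receptors to restrict the stem cell factor WUS. Related peptides of the CLE family act through BAM3 in root phloem, through ACR4 in the root tip and through PXY in the vascular cambium. ERECTA and ERL1 bind EPF and EPFL peptides and act in stem growth and in the spacing of stomata, together with the receptor-like protein TMM.

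The tissues were first set against marker genes. The root cap factor SMB (394 counts) and the root meristem factor PLT1 (621) were listed in root only, and the stomatal genes SPCH (579) and TMM (3919) in shoot only. CASP1 of the endodermis had 19925 counts in root and 380 in shoot, and EXPA7 of root hairs 17572 and 304. RBCS1A, a Rubisco small subunit, had 29379 in root and 1065418 in shoot, while LHCB2.1 was listed in neither. Counts of CASP1 and EXPA7 in the shoot list were thus low beside root but not 0. In the other direction, RBCS1A in root stood above 97.4% of the genes listed there per codon. The part of such counts in the values below was not tested.

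All 10 receptors were listed in shoot and 7 of them in root, under 13 and 8 ORFs. CRN, ERECTA and ERL1 were listed in shoot only, a class that held 8.30% of all listed genes, and 7 receptors stood in both tissues, as did 80.3% of all genes. No receptor was listed in root only, beside 11.4% of all genes. The lists name only ORFs that were called as translated, so a missing gene was not shown to be untranslated. In whole organs, fewer cells of a type and less RNA per cell cannot be told apart. None of the 21 receptor ORFs overlapped a listed ORF of another gene on either strand.

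**Figure D1:**
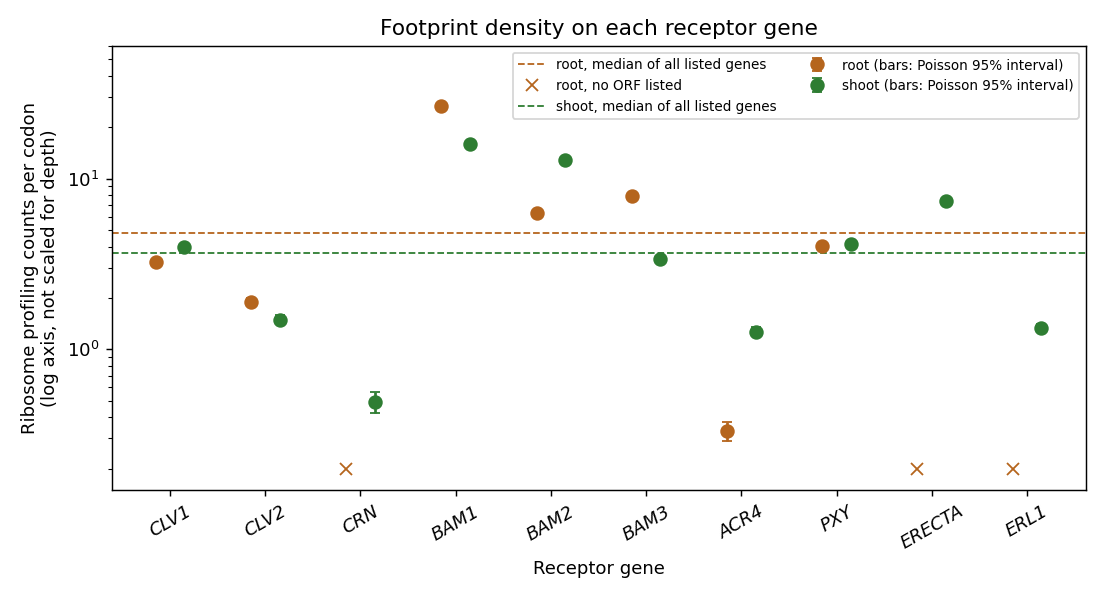
Counts per codon of the largest ORF of each receptor gene (log axis, not scaled for depth) in root (brown) and shoot (green), with Poisson 95% intervals, the median of all listed genes as dashed lines, and crosses where no ORF was listed. BAM1 had the highest density among the receptors listed in each tissue, at 26.7 counts per codon in root and 16.0 in shoot, and the crosses mark CRN, ERECTA and ERL1 in root.

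CLV1 (AT1G75820), the receptor kinase that binds CLV3, had 3174 counts in root (interval 3065 to 3286) and 3895 in shoot (3774 to 4019). Its ORF lay on chromosome 1 from 28463634 to 28466651 in the TAIR10 coordinates of the root list. Per codon, CLV1 held 3.24 counts in root, above 38.7% of the genes listed there, and 3.98 in shoot, above 52.2%. The median gene had 4.79 counts per codon in root and 3.67 in shoot, so CLV1 stood near the middle of each list. As a share of each tissue's summed counts, CLV1 was 1.46-fold higher in shoot, a log2 ratio of 0.54 (exact binomial interval 0.48 to 0.61). The median gene had a log2 ratio of -0.34, and every ratio here is to be read against that shift.

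CLV2 has an extracellular domain like that of CLV1 but no kinase domain, and it works with CRN, a short membrane protein whose kinase-like domain is thought to lack activity. CLV2 (AT1G65380, chromosome 1, 24286944 to 24289104) had 1355 counts in root and 1075 in shoot over the same unspliced ORF of 720 codons. Its log2 ratio was -0.09 (-0.20 to 0.03), which becomes 0.25 relative to the median gene. CRN (AT5G13290, chromosome 5, 4252927 to 4254214) was listed in shoot only, with 197 counts (170 to 227). At 0.491 counts per codon it stood above 7.22% of the genes in shoot, the lowest density of the 10 receptors there. In shoot, CLV2 therefore had 3.04 times the counts per codon of its partner (2.61 to 3.56), and CLV1 had 8.11 times (7.02 to 9.40). These values use the longest listed CRN ORF, of 401 codons. Another listed CRN ORF had the same 197 counts over 376 codons, or 0.524 per codon, which would make both ratios smaller. Among shoot genes within 2-fold of the count of CRN, 22.3% were not listed in root.

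The 3 BAM receptors, close relatives of CLV1, stood on different sides. BAM1 (AT5G65700, chromosome 5, 26281827 to 26284944) had 26810 counts in root (26490 to 27133) and 16025 in shoot (15778 to 16275). It had the highest density of the 7 receptors listed in root and of the 10 listed in shoot, at 26.7 and 16.0 counts per codon, above 85.7% of the listed genes in root and 82.1% in shoot. BAM2 (AT3G49670, chromosome 3, 18417742 to 18420835) had 6335 counts in root and 12890 in shoot, and so was higher in shoot. BAM3 (AT4G20270, chromosome 4, 10949823 to 10952923), known as a CLE45 receptor of root protophloem, had 7859 in root and 3340 in shoot. All 3 had identical ORF coordinates in both tissues, of 1003, 1002 and 992 codons, so their counts compare the same codons.

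The log2 ratio of shoot over root was -0.49 for BAM1 (-0.52 to -0.47), 1.27 for BAM2 (1.23 to 1.32) and -0.99 for BAM3 (-1.05 to -0.93). None of these intervals overlapped another. BAM1 and BAM3 stayed below 0 when scaled on the median gene, at -0.16 and -0.65. BAM2 was 2.42-fold higher in shoot, and BAM3 was 1.98-fold higher in root, just short of the 2-fold size counted here. The mix within a tissue differed accordingly. BAM1 had 4.23 times the counts per codon of BAM2 in root (4.11 to 4.35) and 1.24 times in shoot (1.21 to 1.27). BAM2 stood at 0.798 of BAM3 in root (0.772 to 0.825) and at 3.82 times BAM3 in shoot (3.68 to 3.97). BAM1 exceeded CLV1 8.25-fold per codon in root (7.95 to 8.57) and 4.01-fold in shoot (3.87 to 4.16). These ratios within a tissue do not depend on how the tissues are scaled. How footprints that match more than 1 gene were assigned is not stated in the labels, so the split between close copies such as BAM1 and BAM2 carries that uncertainty.

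BAM3 also had the only upstream ORF (uORF) among the receptors. A uORF lies in the 5' leader of a transcript, and its translation often lowers that of the coding ORF behind it. The BAM3 uORF was listed in root, on chromosome 4 from 10949678 to 10949768, with 30 codons and 198 counts (171 to 228). By the transcript positions it ended 55 bases before the coding ORF and lay 1 base out of its frame. Its density was 6.60 counts per codon against 7.92 on the coding ORF, a ratio of 0.833 (0.720 to 0.959). Among 106 root uORFs of genes with a coding ORF, the median ratio was 1.31, and 31 had a lower ratio than BAM3. A uORF was listed for 0.605% of root genes with a coding ORF. In shoot, where 0.384% of such genes had one, no uORF was listed for BAM3, and its coding ORF had fewer counts.

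ACR4 (AT3G59420), a receptor kinase of the CRINKLY4 family that acts in the epidermis and in the root tip, was the receptor farthest to the shoot side among those listed in both tissues. It had 258 counts in root (227 to 291) and 1092 in shoot (1028 to 1159). Its ORF, with no intron, ended at the same stop codon in both tissues, on chromosome 3 at 21959874 on the minus strand. Because the listed ORF was shorter in root, the log2 ratio was 2.33 from counts (2.13 to 2.53) and 2.19 from counts per codon. In root, ACR4 had 0.330 counts per codon, above 2.28% of the listed genes, and in shoot 1.27, above 22.3%. It was thus among the most thinly covered genes of the root list.

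PXY (AT5G61480), the receptor of CLE41 and CLE44 that maintains the vascular cambium, had similar counts in both tissues, 4213 in root (4087 to 4342) and 3385 in shoot (3272 to 3501). Its log2 ratio was -0.07 (-0.13 to -0.0022) from counts. That value sets counts over 1041 codons in root against counts over 812 in shoot. The ratio was 0.29 from counts per codon, where the median gene stood at -0.33. It was 0.27 from counts when scaled on the median gene, so its sign depended on the measure. PXY lay on chromosome 5 from 24724544 to 24727841 in the root list. Its density was 4.05 counts per codon in root and 4.17 in shoot, and in shoot the interval of PXY overlapped that of CLV1.

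**Figure D2:**
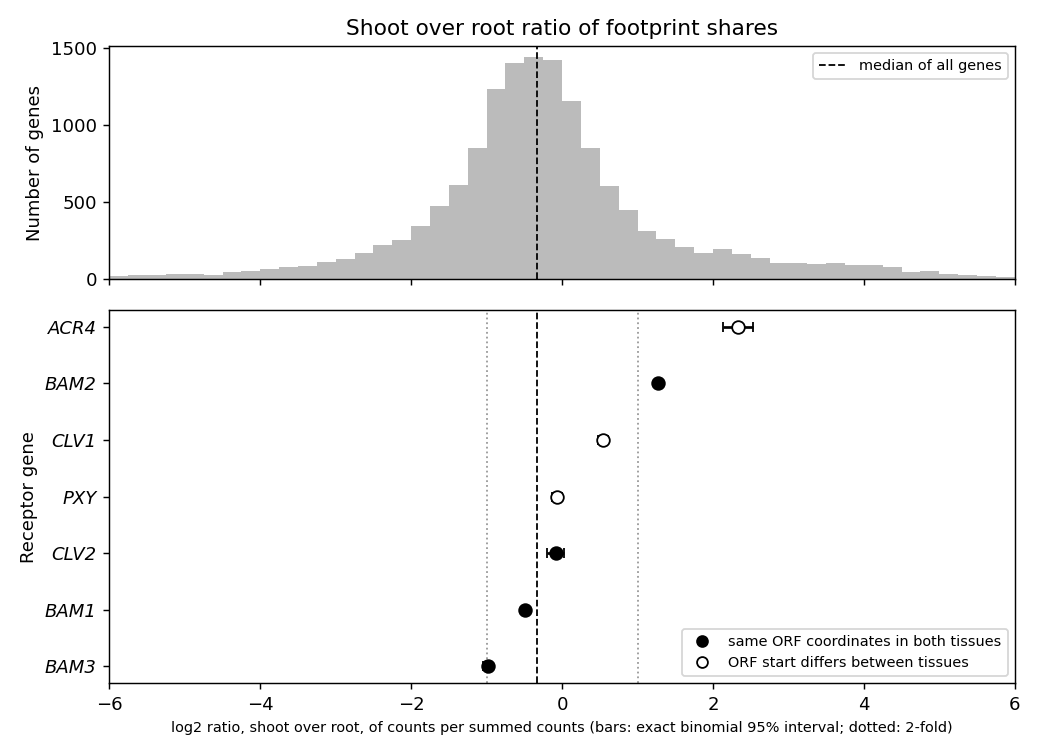
Top, the number of genes by log2 ratio of shoot over root for 14659 genes listed in both tissues with at least 100 counts in the higher one (values outside -6 to 6 not drawn). Bottom, the 7 receptors listed in both tissues, with exact binomial 95% intervals. They run from -0.99 for BAM3 to 2.33 for ACR4, against a median of -0.34 for all genes (dashed).

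Counted at 2-fold, 2 of the 7 receptors listed in both tissues were higher in shoot (ACR4 and BAM2), beside 16.1% of all genes. None was higher in root, beside 25.5% of all genes. ACR4 was also past 4-fold, as were 9.53% of all genes in that direction, and 9.89% were past 4-fold in root. The remaining 5 lay within 2-fold, as did 8565 of 14659 genes. The median of the 7 was -0.07, or 0.27 above the median gene, with 5 above that gene and 2 below it. When all genes were scaled on the median gene, 53.0% of the genes past 2-fold were on the shoot side, in place of 38.6%, while the receptor counts stayed at 2 and 0.

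In order of counts per codon, root ran from BAM1 through BAM3, BAM2, PXY, CLV1 and CLV2 to ACR4. No neighbours in that order had overlapping intervals. The smallest steps were from PXY to CLV1 and from BAM3 to BAM2, each 1.25-fold, and the largest was the 5.70-fold step from CLV2 down to ACR4. The shoot order was BAM1, BAM2, ERECTA, PXY, CLV1, BAM3, CLV2, ERL1, ACR4 and CRN. There, the intervals of PXY and CLV1 overlapped, as did those of CLV2 and ERL1 and those of ERL1 and ACR4. Overlap of separate intervals does not show that densities are equal. BAM3 stood above PXY and CLV1 in root and below both in shoot.

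ERECTA and its relative ERL1 were absent from the root list. ERECTA (AT2G26330, chromosome 2, 11208370 to 11213894) had 7186 counts in shoot (7021 to 7354), or 7.36 per codon, above 67.8% of the genes there behind only BAM1 and BAM2 among the receptors. Of 2334 shoot genes with at least as many counts, 40 (ERECTA included) were not listed in root, or 1.71%. ERL1 (AT5G62230, chromosome 5, 24997101 to 25002129) had 1245 counts (1177 to 1316), or 1.33 per codon. Among shoot genes within 2-fold of the count of ERL1, 6.60% were not listed in root, and for ERECTA the share was 3.20%. Per codon, ERECTA stood 5.52-fold above ERL1 (5.19 to 5.86). No root count is given for either gene, so no fold was computed.

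Part of the genes around ERECTA were also listed in shoot only. ERL2, the remaining member of the ERECTA family, was listed in shoot only, with 1929 counts over 952 codons. TMM, which modifies their response to peptides in stomatal lineages, had 7.90 counts per codon in shoot, close to the 7.36 of ERECTA. Among 6 EPF and EPFL peptides, 3 were listed, all in shoot only. EPF1 and EPF2, which limit stomatal number, had 78 and 541 counts, and EPFL9, which promotes stomata, had 873. EPFL4, EPFL5 and EPFL6 were listed in neither tissue. With SPCH, the transcription factor that starts the stomatal lineage, 6 of these 9 genes were in shoot only, 3 in neither and 0 in root. Of all listed genes 8.30% were in shoot only, a share that, unlike the 9, leaves out unlisted genes. SPCH and TMM, used above as shoot markers, are among the 6. The 9 leave out the YDA cascade below ERECTA, whose 5 kinases were all listed in both tissues. They also leave out 4 SERK co-receptors, of which 2 were in both tissues, 1 in shoot only and 1 in neither.

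**Figure D3:**
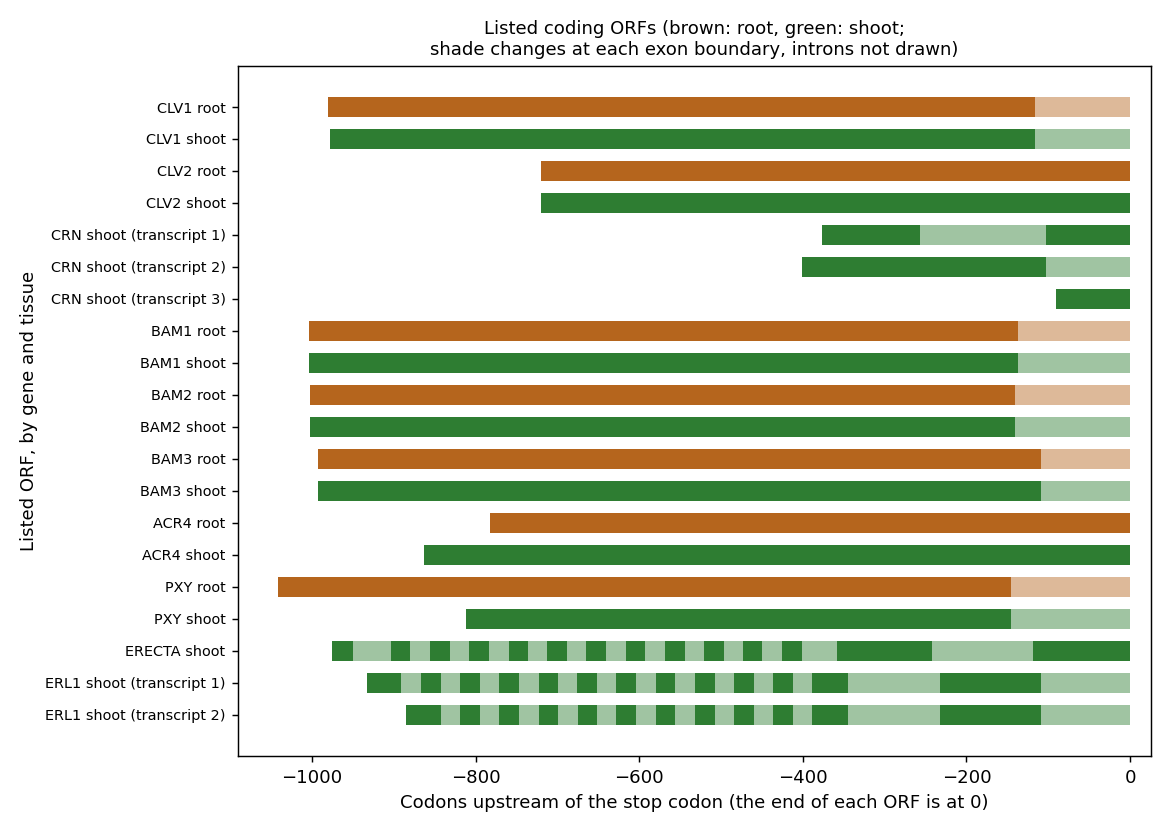
The 20 listed coding ORFs of the 10 receptor genes, drawn to scale in codons upstream of the stop codon (x axis), in root (brown) and shoot (green), with a change of shade at each exon boundary. The starts differ between tissues for CLV1 by 2 codons, for ACR4 by 81 and for PXY by 229, and ERECTA and ERL1 are split into many short blocks.

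The exon layout set ERECTA and ERL1 apart from the other receptors. The ERECTA ORF of 976 codons was spread over 27 exon blocks, 18 of them exactly 72 bases long, and the longest ERL1 ORF of 933 codons over 26 blocks, 19 of them of 72 bases. A block of 72 bases holds 24 codons, the length of a typical leucine-rich repeat, the unit of which the extracellular domain is built. Toward the stop codon, where the kinase domain lies, the blocks were longer. The blocks of 129 and 371 bases recurred in both genes, and the last block had 354 bases in ERECTA and 326 in ERL1. Over the longest ORF of each of 16191 shoot genes, 1.13% of 101796 blocks had 72 bases. Only 4 of these genes had 10 or more such blocks, namely ERL1, ERL2, ERECTA and AT1G56140. By contrast, CLV1, BAM1, BAM2, BAM3 and PXY each had 1 intron, close to the stop codon, with last blocks of 350, 412, 421, 328 and 437 bases. CLV2 and ACR4 had none. Block sums were 1 base over the coding length on the plus strand and 1 base under it on the minus strand in every listed ORF, so outer ORF ends are not exact and outer block lengths carry that error.

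Listed transcripts of ERL1 and CRN that share a stop codon gave counts for parts of a gene. For ERL1, transcript 2 lacks a pair of neighbouring 72-base blocks of transcript 1, on chromosome 5 from 24999311 to 24999382 and from 24999468 to 24999539. The count was 1245 with these blocks and 1158 without them. The difference of 87 counts over 48 codons is 1.81 counts per codon (1.45 to 2.24), against 1.31 on the rest of the ORF (1.23 to 1.39). Footprints were therefore counted on these repeats in shoot at no lower a density than on the rest.

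For CRN, transcript 2 reads through a stretch of 25 codons that is an intron in transcript 1. Both ORFs, of 401 and 376 codons, had 197 counts, so the stretch added 0 counts, with an upper limit of 0.148 counts per codon. At the density of transcript 1, 0.524 counts per codon, the stretch would hold 13.1 counts. Equal counts were found in 12.2% of 1903 shoot pairs with the same stop codon and a length difference of at least 75 bases. The ORF of CRN transcript 3, the last 91 codons, had 73 counts, or 0.802 per codon (0.629 to 1.01). The 285 codons before it in transcript 1 had 124, or 0.435 per codon (0.362 to 0.519), so the end of the gene was more densely covered than its start.

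The listed start of the coding ORF differed between tissues in 3 of the 7 receptors listed in both, namely CLV1, ACR4 and PXY. Among 14365 genes with the same stop codon and transcript in both, 21.4% differed in this way. For CLV1, the shoot ORF began 6 bases later, leaving 978 codons in place of 980. ACR4 had 863 codons in shoot and 782 in root, a difference of 81 codons, or 9.39% of the longer ORF. PXY had 1041 codons in root, starting at position 1 of its annotated transcript, and 812 in shoot, or 229 codons (22.0%) fewer at the 5' end. A difference of at least that of PXY was found in 105 of the 14365 genes, or 0.731%, and a difference as large as that of ACR4 or larger in 4.98%. ACR4 was shorter in root (258 counts against 1092) and PXY in shoot (3385 against 4213), in each case the tissue with fewer counts. CLV1 was shorter in shoot, where it had more counts (3895 against 3174). Counts per codon divide by the listed length itself and were lower in root for ACR4. For PXY they were 4.17 in shoot and 4.05 in root, not scaled for depth. Whether ribosomes started at different codons, or the caller settled on another start in frame, was not tested.

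**Figure D4:**
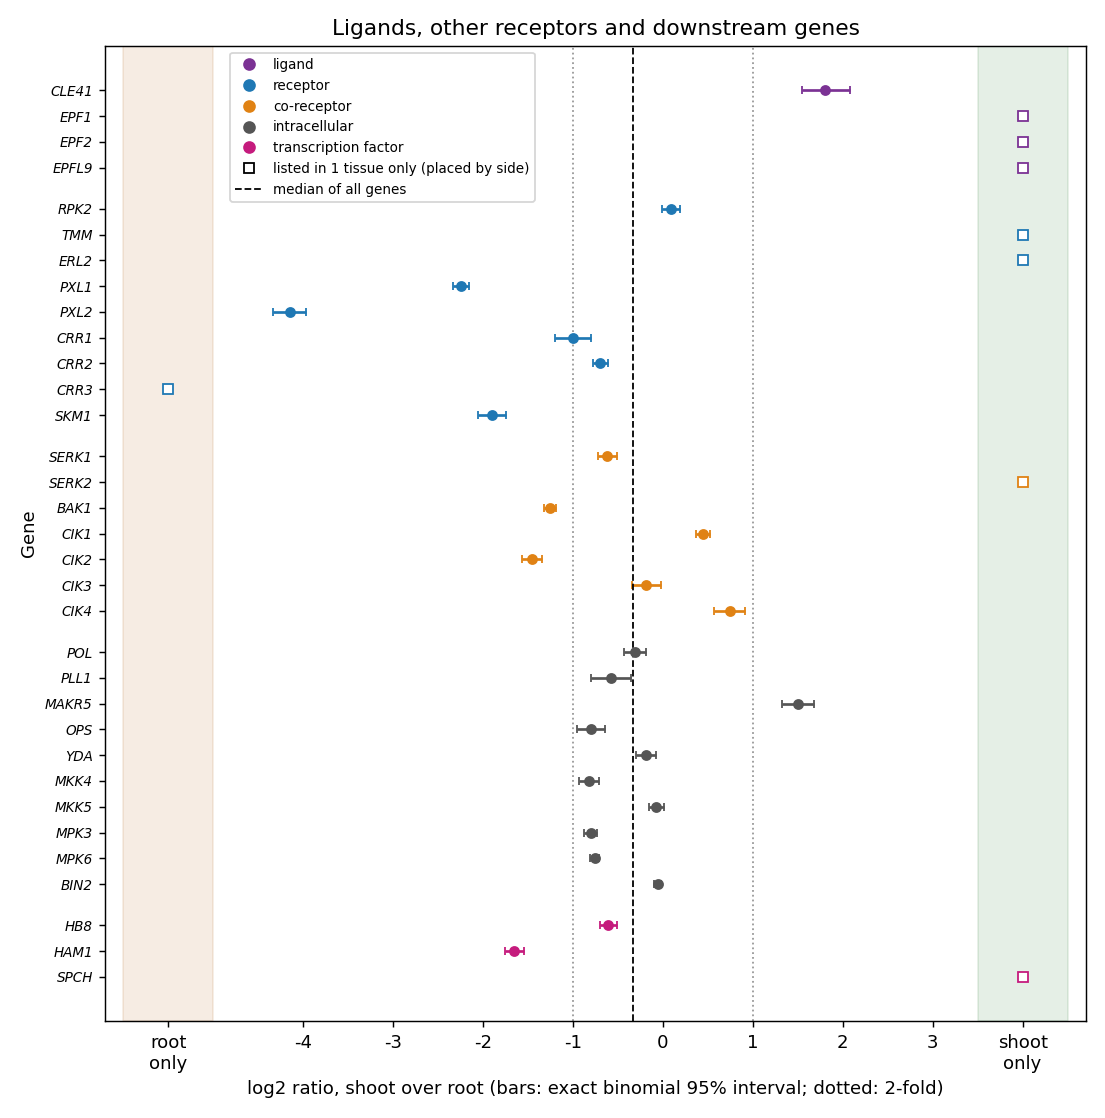
Log2 ratio of shoot over root for the listed genes of the 50-gene list, by role (colours), with exact binomial 95% intervals, and open squares for genes listed in 1 tissue. The ratios run from -4.15 for PXL2 to 1.81 for CLE41, the dashed line is the median of all genes at -0.34, and 17 genes listed in neither tissue are not drawn. The point labelled SKM1 is the locus AT1G75640.

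A list of 50 further genes placed the receptors among their ligands, partners and targets. Of these, 25 were listed in both tissues, 7 in shoot only, 1 in root only and 17 in neither. Of all listed genes, 80.3% were in both, 8.30% in shoot only and 11.4% in root only, shares that leave out unlisted genes. Among the 7 in shoot only, 6 were the genes around ERECTA given above. Past 2-fold, 2 of the 25 were higher in shoot (16.1% of all genes were) and 6 in root (25.5%). Their median log2 ratio was -0.62, or 0.28 below the median gene. Below 0 stood 20 of the 25, beside 9244 of 14659 genes. The 20 fall to 15 when set against the median gene, which by definition has as many genes below it as above. Those that change side are CIK3, POL, YDA, MKK5 and BIN2.

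Few peptide ligands were listed. Among 8 CLE genes, CLE41 was listed in both tissues and the other 7 in neither, CLV3 and CLE40 included. CLE41, a ligand of PXY, had 152 counts in root and 449 in shoot, a log2 ratio of 1.81 (1.54 to 2.09). Its listed ORF had 55 codons in root and 99 in shoot, at 2.76 and 4.54 counts per codon. Per codon and scaled by each tissue's sum, CLE41 was 1.95-fold higher in shoot (log2 0.96), so that it no longer passed 2-fold.

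Related receptors outside the 10 went both ways. ERL2 and TMM were listed in shoot only, as given above. Of the 6 listed in both tissues, 3 were past 2-fold in root (PXL1, PXL2 and AT1G75640), beside 25.5% of all genes. PXL1 and PXL2, the closest relatives of PXY, had 7440 and 5658 counts in root and 1322 and 268 in shoot. Their log2 ratios were -2.24 (-2.33 to -2.16) and -4.15 (-4.33 to -3.98), against -0.07 for PXY. AT1G75640, entered in the list under the symbol SKM1, was at -1.90. Whether that symbol belongs to this locus was not checked. The relatives of ACR4 also stood apart from it. CRR1 was at -0.998 and CRR2 at -0.70, CRR3 was listed in root only with 1045 counts, and CRK1 in neither, while ACR4 was at 2.33. RPK2, a further receptor in CLV3 signalling, was near equal shares at 0.09 (-0.0064 to 0.19). Of the 6 with a ratio, 5 were below 0, as were 9244 of 14659 genes.

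The co-receptors, which join a receptor once the peptide is bound, were divided. Among the CIK kinases that work with CLV1 and BAM receptors, CIK4 (0.74) and CIK1 (0.44) were above 0 and CIK2 (-1.45) below. CIK3 (-0.19) was below 0 but above the median gene. BAK1, shared with brassinosteroid and immune receptors, was the SERK kinase with the most counts, 7311 in root and 2585 in shoot, at -1.25. SERK1 was at -0.62. SERK2 was listed in shoot only with 947 counts, and SERK4 in neither.

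Inside the cell, all 5 kinases of the YDA cascade, which acts below ERECTA, were listed in both tissues, although ERECTA, ERL1 and ERL2 were listed in shoot only. Their log2 ratios lay between -0.82 for MKK4 and -0.07 for MKK5. MPK6, the last kinase of the cascade, had 8511 counts in root and 4231 in shoot, and MPK3 had 5132 and 2475. BIN2, a kinase that PXY regulates, had the most counts of the list in both tissues, 12144 and 9830. MAKR5, which amplifies BAM3 signalling in root phloem, had 372 counts in root and 889 in shoot, a 2.84-fold higher share in shoot, opposite in direction to BAM3. OPS, a regulator of protophloem, was at -0.79, and BRX, which acts with it, was listed in neither tissue. The phosphatase POL, which acts below CLV1, had a uORF in root of 45 codons with 85 counts, at 1.16 times the density of its coding ORF (0.924 to 1.45).

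Among the transcription factors, WUS, WOX4, WOX5 and WOX14, which CLE signalling controls in meristems, were listed in neither tissue. HAM1, a partner of WUS, had 3463 counts in root and 927 in shoot, at -1.65. HB8, a vascular factor, had 2582 and 1426, at -0.61.

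The genes most like CLV1 and PXY were sought by the distance in log2 counts per codon, scaled by each tissue's sum, over the 2 tissues, among 14675 genes listed in both. Nearest to CLV1 were SUVH9 (distance 0.027) and AT3G24030 (0.037), and 19 genes lay within 0.1. Nearest to PXY were AT2G12462 (0.013) and IAA1 (0.017), with 30 genes within 0.1. With 2 values per gene, such closeness describes the level and the ratio only. It was not computed for ERECTA, which has no root value.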

How the data were processed

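Per the labels, the deposited tables come from ribosome profiling of root and shoot. The submitters' processing notes give the TAIR10 build and name Bowtie2 and STAR 2.5.1b without saying what each was used for. The ORF caller and the pooling of the 3 samples per tissue are not given in the sources used. Each deposited count belongs to 1 ORF and is a whole number of at least 6. It was read as footprints from its values, as there is no header, and is not scaled by length or depth.

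Rows of 1 name were joined into 1 ORF, and codons came from the transcript positions in the name. A gene's value is its largest ORF count, from any category. Scaling used the sum of these values, 113381941 for root and 95481490 for shoot, which covers called ORFs only. Log2 ratios used a pseudocount of 0.5 and at least 100 counts in the higher tissue. Counts carry exact Poisson intervals, and ratios exact binomial (Clopper-Pearson) ones. No test between tissues was made. The formula of the ratio step was run on simulated Poisson counts with known folds, which checks the arithmetic only. Symbols of the 10 receptors and the 50 listed genes were set together with their loci when the lists were made. RefSeq (TAIR10.1 assembly, names only) held all of these loci and gave the symbols of other genes.

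The receptors and lists were chosen with earlier results of these data known. Named are all receptors and, per role of the 50 genes, those of 1 tissue only and those farthest from 0 in each direction, plus the 2 genes nearest to CLV1 and PXY. Other genes named were chosen after their values were seen. The alternatives were coding ORFs only, ORF counts of at least 100 or 500, identical ORFs, counts per codon, median scaling, nuclear genes only, a pseudocount of 5, and a minimum of 1000 counts or none. Python 3.11.15 was used with scipy 1.17.1, pandas 2.3.3, matplotlib 3.10.9 and numpy 2.4.6.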

Additional observations from a re-analysis of the deposited data

How the results depend on the processing

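The median log2 ratio of the receptors listed in both tissues was -0.07. It became -0.29 over the 4 receptors with identical ORFs, 0.29 with counts per codon and 0.27 with median scaling, so its sign is not settled. The number of receptors past 2-fold in shoot went from 2 to 1 with identical ORFs, as ACR4 has none, and stayed at 2 under the other ratio alternatives. The number past 2-fold in root was 0 under every ratio alternative. With a minimum of 500 counts per ORF, ACR4 left the root list and CRN the shoot list, so that 1 receptor was in neither list, and 4 genes of the 50 were in root only in place of 1. In the list of 50, genes past 2-fold in shoot went from 2 to 1 with identical ORFs and with counts per codon, to 0 with at least 1000 counts, and to 3 with median scaling. Those past 2-fold in root went from 6 to 4 with identical ORFs, over 19 genes, and to 5 with median scaling. No reversed sign was found for ACR4 or BAM2. No paired analysis was possible because each ORF has 1 value per tissue, and for the same reason no replicate was left out. Counting intervals were wide for low counts such as CRN, ACR4 in root and EPF1. Differing ORF starts moved PXY from -0.07 to 0.29 and CLE41 from 1.81 to 0.96 per codon.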
